A study of Mus musculus with 12 samples.

Results

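The 6 libraries described here are the high fat diet arm of a series of 12 bulk RNA-seq libraries from mouse jejunum. They are 3 libraries of sorted enteroendocrine cells (EEC) and 3 of the other sorted villus cells (non-EEC), taken by their labels, with every gene in the deposited table considered. All mice were males on the C57BL/6N background, 12 weeks old, of the genotype Neurog3eYFP/+, in which 1 allele of Neurog3 carries a yellow fluorescent reporter. The mice of this arm received the high fat diet (D12492) for 4 weeks from 8 weeks of age. The mice of the other arm, used here for the shared estimate of spread and for 1 comparison, stayed on the normal diet (Safe D04), with 3 mice per diet. Villi were enriched with EDTA and dissociated with dispase, and eYFP-positive and eYFP-negative cells were sorted. EEC are here all eYFP-positive cells, whatever hormone they make. Non-EEC are all eYFP-negative cells of the villus preparation, not purified enterocytes. The account below covers gene families other than the hormones and the usual enterocyte markers.

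EEC are scattered hormone-secreting cells of the gut epithelium that arise from progenitors expressing the transcription factor Neurog3. They sense nutrients and other luminal stimuli, depolarize, and release peptides and amines from dense-core granules by calcium-triggered exocytosis, a machinery that they share with neurons. Their neighbours on the villus are mostly absorptive enterocytes, whose brush border digests and takes up nutrients and whose mitochondria and peroxisomes oxidize fatty acids.

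The 3 EEC libraries held 11083904 to 16331053 counts and the 3 non-EEC libraries 10463504 to 17685977. Values are CPM, counts scaled by library size, after TMM scaling, printed in the order of replicates 1, 2 and 3, and sums run over the markers that passed the filter. The sort labels were checked first: Neurog3, the gene of the reporter, had 144, 24.4 and 61.8 CPM in EEC and 1.26, 0.254 and 1.02 CPM in non-EEC. Chga, the gene of a granule protein, had 5555, 2888 and 4879 CPM in EEC and 31.7, 40.8 and 32.8 CPM in non-EEC. The 12 EEC markers summed to 69891, 25856 and 33708 CPM in EEC against 635, 336 and 265 CPM in non-EEC. The 12 enterocyte markers summed to 10297, 22771 and 10948 CPM in EEC and 39617, 87588 and 81324 CPM in non-EEC, with EEC replicate 2 the highest EEC library. The 12 T cell markers summed to 43.9, 96.3 and 199 CPM in EEC and 602, 90.9 and 946 CPM in non-EEC, against 12701 to 33126 CPM in the non-EEC libraries of the normal diet. Summed goblet markers (2263 to 3785 CPM in EEC, 6596 to 13426 in non-EEC) and Paneth markers (129 to 1188 against 1200 to 5500.2) were lower in each EEC library than in each non-EEC library. edgeR called 0 of 8 and 0 of 7 of them, with 4 and 3 lower at an unadjusted p below 0.05 and 3 and 2 called lower by DESeq2. Of the 8 goblet fold changes 7 were negative. The goblet marker Agr2 went the other way, with 40825 counts in EEC and 16038 in non-EEC, and Tff3 had 18301 and 17830. Of the 12 T cell markers 2, Thy1 and Lck, were called lower in EEC, 11 fold changes were negative (median -2.30), 10 were lower at an unadjusted p below 0.05 and DESeq2 called 9. The T cell sums overlapped between the sorts through non-EEC replicate 2, without which 6 were called lower. Sums of B cell, myeloid, tuft, stem and cycling cell markers overlapped as well. Of the 8 neuron and glia markers, 4 of 5 tested were called higher in EEC (summed 47.4 to 187 CPM against 2.23 to 13.8), while the glial genes Sox10 and S100b had 0 and 7 counts in all EEC libraries together. Their part in the neuronal genes below was not tested. In bulk libraries, fewer cells of a type and less RNA of that type per cell cannot be told apart.

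Of 17087 genes tested with edgeR's quasi-likelihood test, 1748 (10.2%) were higher and 645 (3.77%) were lower in EEC at a Benjamini-Hochberg adjusted p below 0.05, and the median log2 fold change of all tested genes was 0.00. Libraries of the 2 sorts that carry the same replicate number varied together, and with the replicate number as a block 1762 genes (10.3%) were higher and 1042 (6.10%) lower. The count of lower genes rested on single libraries: it was 50 without EEC replicate 1, 80 without EEC replicate 3, 223 without non-EEC replicate 2 and 148 without non-EEC replicate 3, and it was 1045 without non-EEC replicate 1 of the normal diet. The count of higher genes was 1142 without EEC replicate 1, 1161 without non-EEC replicate 2 and 1101 without non-EEC replicate 3. Counts of list members are given below against the shares of 10.2% and 3.77%, and they describe the lists without testing them as sets. A gene silent in 1 of the groups entered the test only through the other, so it had to differ, and the counts cover the members that passed rather than all members. Where a member had 0 counts in 1 sort, the median is also given at the bound, with that member set to the fold that a floor of 3 counts allows. Fold changes are log2 values, EEC over non-EEC, and the value after ± is the standard error (SE) of the fit. Adjusted p-values are from that test.

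**Figure D1:**
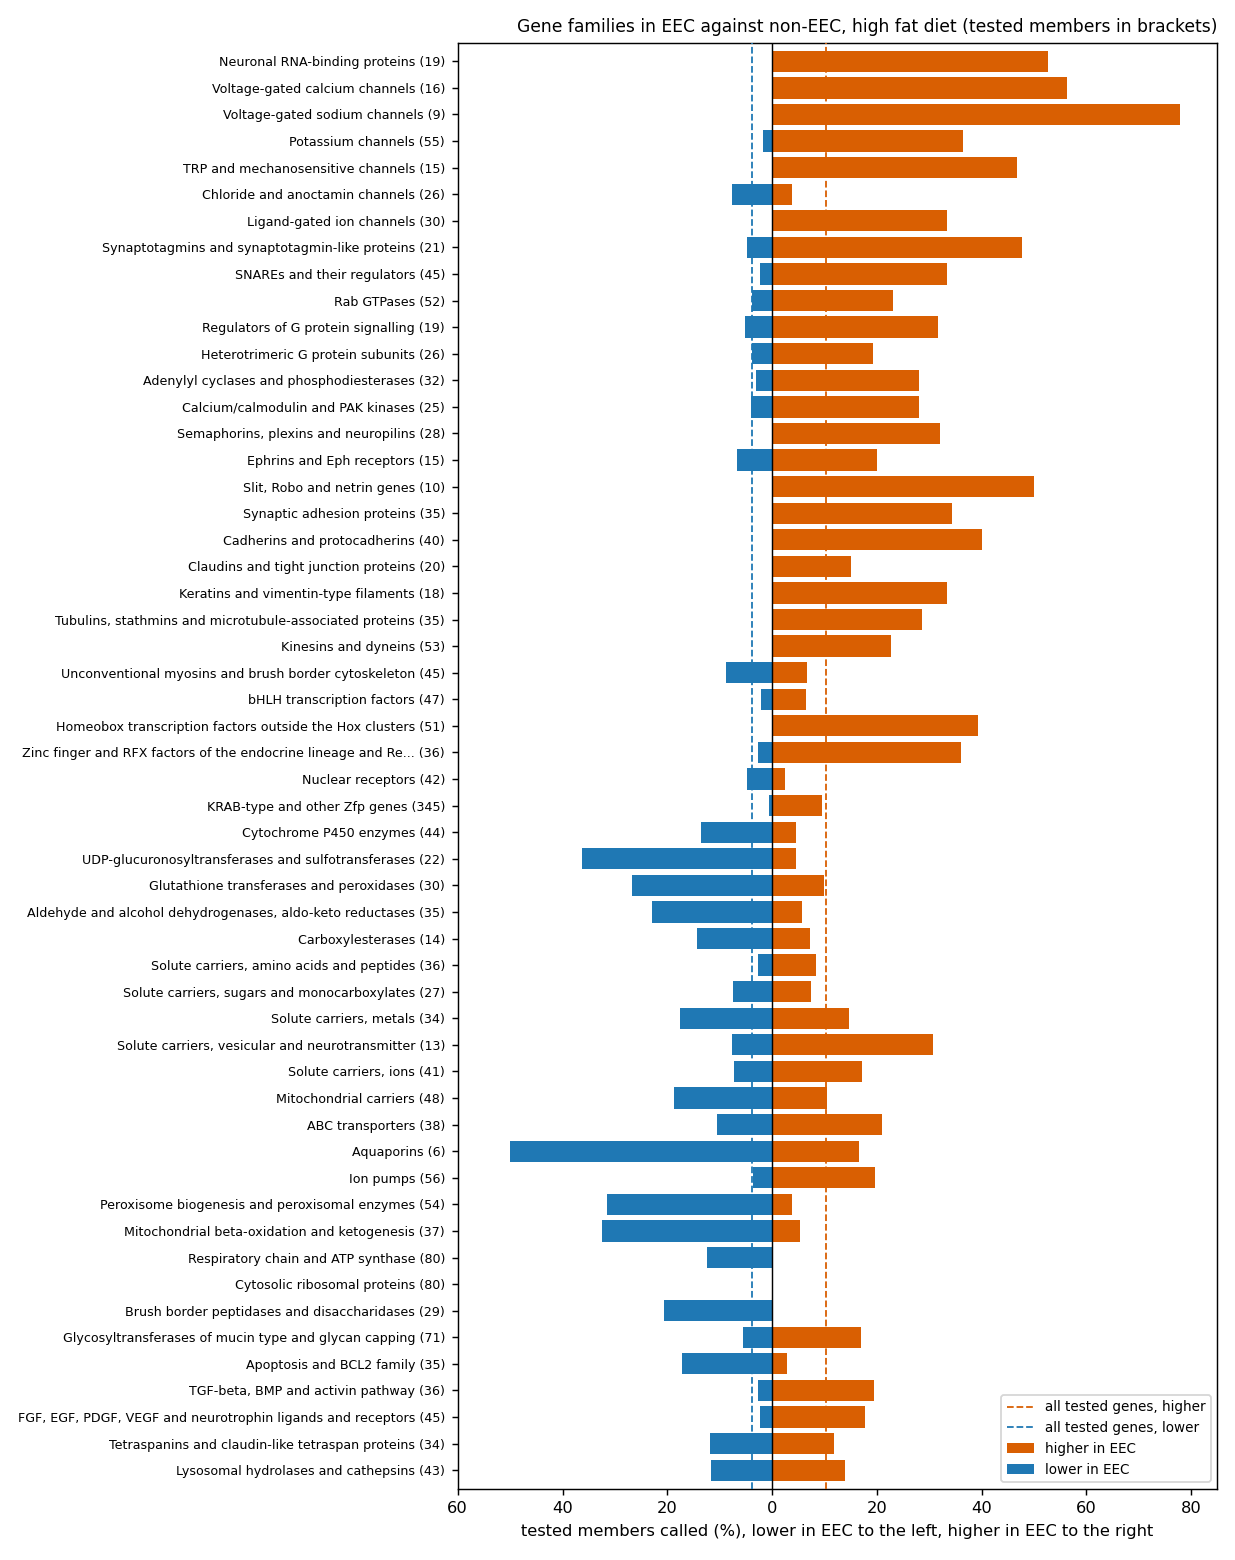
Share of the tested members of each of 54 gene families called higher (orange, to the right) or lower (blue, to the left) in EEC, in percent, with the number of tested members in brackets; dashed lines mark the shares among all 17087 tested genes, 10.2% and 3.77%. Voltage-gated sodium channels had the highest share of higher members (7 of 9 tested, of 14 genes in the table). That rank rests in part on members at 0 or 2 counts in non-EEC, and 3 were called with at least 5 CPM required in 3 libraries. Peroxisomal and beta-oxidation genes were among the lists with the most lower members (17 of 54 and 12 of 37). None of the 80 cytosolic ribosomal protein genes was called.

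Voltage-gated channels, which make a cell electrically excitable, held many genes higher in EEC. Calcium channel genes were called higher for 9 of 16 tested members (16 of the 26 genes in the table passed the filter) with a median log2 fold change of 3.86. Cacna1a, the pore of the P/Q-type channel that triggers transmitter release (chr8:84388440-84640246, plus strand in mm10), had 584, 429 and 450.5 CPM in EEC and 15.2, 19.3 and 8.77 CPM in non-EEC (log2 fold change 5.08 ± 0.57, adjusted p = 0.000189). Cacna2d1, an auxiliary subunit that brings such pores to the membrane, had 472, 297 and 480.0 CPM in EEC and 6.33, 2.92 and 4.67 CPM in non-EEC (log2 fold change 6.47 ± 0.84, adjusted p = 0.000403). Every EEC library lay far above every non-EEC library for both genes. The T-type pore Cacna1h, which opens at small depolarizations, was higher by 5.17 ± 0.79 on the log2 scale (adjusted p = 0.00103). Voltage-gated sodium channels, which carry the upstroke of the action potential, were called higher for 7 of 9 tested members with a median of 5.84, or 5.01 at the bound. Of the called members, Scn1a and Scn9a had 0 counts and Scn2a and Scn7a 2 counts each in the non-EEC libraries together, which left no room for a lower call. With at least 5 CPM required in 3 libraries, 3 members were called higher. Scn3a, a pore subunit (chr2:65457118-65567627, minus strand), had 354, 345 and 508 CPM in EEC and 6.33, 3.81 and 2.28 CPM in non-EEC (log2 fold change 6.58 ± 0.72, adjusted p = 0.000171). Scn8a, another pore subunit, reached 16.0, 23.5 and 21.0 CPM in EEC and 0.361, 0.254 and 0 CPM in non-EEC (log2 fold change 6.44 ± 1.02, adjusted p = 0.0013). Scn9a had 0 counts in all non-EEC libraries and 5.64, 1.97 and 3.46 CPM in EEC, which makes it at least 43.2-fold higher against a floor of 3 counts over the 3 non-EEC libraries together.

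Potassium channels, which set the resting potential and end the action potential, were called higher for 20 of 55 tested members and lower for 1 (55 of the 93 genes in the table passed the filter, median 2.59). Kcnh6, an ether-a-go-go channel (chr11:106008124-106034549, plus strand), had 191, 168 and 204 CPM in EEC and 4.70, 4.82 and 5.24 CPM in non-EEC (log2 fold change 5.25 ± 0.56, adjusted p = 0.000148). Its relative Kcnh2, the pore of a cardiac repolarizing current, had 34.7, 16.3 and 26.2 CPM in EEC and 0.723, 0.634 and 0.569 CPM in non-EEC (log2 fold change 5.29 ± 0.55, adjusted p = 0.000124). Neither gene overlapped between sorts. Kcnc1, a fast delayed rectifier of rapidly firing neurons, was higher by 6.20 ± 0.85 (adjusted p = 0.000524). Kcnh8 was higher by 7.26 ± 0.89 (adjusted p = 0.000289). The lower member was Kcnk5, an acid-sensitive background channel of epithelia, with 9.75, 39.6 and 10.1 CPM in EEC and 85.6, 132 and 116 CPM in non-EEC (log2 fold change -2.49 ± 0.65, adjusted p = 0.0224). Kcnk5 was not called without EEC replicate 1 or 3 or without non-EEC replicate 2 or 3, with adjusted p from 0.0616 to 0.107. The sulfonylurea receptor Abcc8, an ABC protein that is the regulatory subunit of an ATP-sensitive potassium channel, had 156, 89.5 and 113 CPM in EEC and 2.35, 1.52 and 0.797 CPM in non-EEC (log2 fold change 6.22 ± 1.09, adjusted p = 0.00229).

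Sensory and ligand-gated channels followed the same direction in part. TRP and mechanosensitive channels were called higher for 7 of 15 tested members with a median of 0.59. Leaving out each library in turn, in the order EEC replicates 1 to 3 and then non-EEC replicates 1 to 3, gave 5, 6, 5, 5, 6 and 5 called. Trpa1, the irritant receptor of serotonin-secreting enterochromaffin cells, had 357, 306 and 441 CPM in EEC and 5.48, 2.54 and 7.74 CPM in non-EEC (log2 fold change 6.12 ± 0.91, adjusted p = 0.000845). Trpm2, a calcium-permeable channel gated by ADP-ribose, had 189, 332 and 345 CPM in EEC and 11.2, 27.6 and 31.0 CPM in non-EEC (log2 fold change 3.64 ± 0.49, adjusted p = 0.000497). Trpc7, another calcium-permeable channel, had 46.8, 22.3 and 38.9 CPM in EEC and 0.181, 0.127 and 0.342 CPM in non-EEC (adjusted p = 0.000524). Ligand-gated channels were called higher for 10 of 30 tested members (median 1.84), and 8, 10, 8, 9, 8 and 6 with each library left out in that order. Grik5, a kainate-type glutamate receptor subunit, was higher by 3.70 ± 0.59 (adjusted p = 0.00126). Of chloride channels and anoctamins 1 of 26 was higher and 2 were lower (median -0.44), the lower pair being Clic5 and Ano6. The lower calls numbered 0, 6, 0, 3, 1 and 1 with each library left out, and 6 with the block. The higher call, Clcn6, was not called without EEC replicate 1 or 3 or without non-EEC replicate 1 or 3, with adjusted p from 0.0803 to 0.157, and its adjusted p was 0.0878 with the block.

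Genes of regulated exocytosis were higher in EEC for steps from vesicle priming to calcium sensing. SNAREs and their regulators, which pull vesicle and plasma membrane together, were called higher for 15 of 45 tested members and lower for 1 (median 0.30). Unc13a, which primes docked vesicles (chr8:71624417-71671757, minus strand), had 87.1, 73.8 and 82.9 CPM in EEC and 2.47, 3.55 and 3.64 CPM in non-EEC (log2 fold change 4.66 ± 0.35, adjusted p = 3.66e-05). Stxbp5l, a tomosyn that binds syntaxin, had 363, 444 and 754 CPM in EEC and 7.95, 3.68 and 5.69 CPM in non-EEC (log2 fold change 6.48 ± 0.83, adjusted p = 0.000375). Baiap3, a relative of Unc13a that acts on dense-core vesicles, had 105, 37.8 and 79.1 CPM in EEC and 3.13, 1.52 and 5.01 CPM in non-EEC (log2 fold change 4.52 ± 0.62, adjusted p = 0.000524). The 6 libraries separated by sort for all 3 genes, with EEC far above non-EEC. Rimbp2, a scaffold that ties calcium channels to vesicles, had 196, 142 and 176 CPM in EEC and 5.06, 1.27 and 1.48 CPM in non-EEC (log2 fold change 5.98 ± 0.83, adjusted p = 0.000578). The lower member was Snap23, the widely expressed relative of the neuronal SNARE Snap25, with 38.3, 60.9 and 36.6 CPM in EEC and 117, 125 and 97.3 CPM in non-EEC (log2 fold change -1.32 ± 0.39, adjusted p = 0.0384). Snap23 was not called without EEC replicate 1 or 3 or without non-EEC replicate 1 or 2 or 3, with adjusted p from 0.075 to 0.158, and with the replicate block it was not called either, at an adjusted p of 0.0571.

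Synaptotagmins and their relatives, which sense calcium or tether membranes, were called higher for 10 of 21 tested members and lower for 1, Sytl3 (median 1.93). Sytl3 was not called without EEC replicate 1 or 3 or without non-EEC replicate 3, with adjusted p from 0.0534 to 0.0932. Syt13 had 289, 134 and 275 CPM in EEC and 2.29, 2.16 and 1.59 CPM in non-EEC (log2 fold change 6.84 ± 0.99, adjusted p = 0.000753). Rph3al, a Rab effector of secretory granules, was higher by 4.63 ± 0.76 (adjusted p = 0.00154). Esyt1, which tethers the endoplasmic reticulum to the plasma membrane, was detected in both sorts, with 166, 118 and 129 CPM in EEC and 18.3, 17.5 and 26.4 CPM in non-EEC (log2 fold change 2.73 ± 0.32, adjusted p = 0.000247). Rab GTPases, which direct vesicle traffic, were called higher for 12 of 52 tested members and lower for 2, with a median of -0.06, and leaving out each library in the same order gave 5, 12, 8, 9, 6 and 6 higher. Rab3c, a Rab of secretory vesicles (chr13:110054187-110280996, minus strand), had 446, 334 and 465 CPM in EEC and 5.84, 4.06 and 3.64 CPM in non-EEC (log2 fold change 6.51 ± 0.71, adjusted p = 0.000171). Rab36 had 1 count in all non-EEC libraries together and 31.6, 21.5 and 29.6 CPM in EEC, a ratio of 936-fold with a 95% counting interval of 168 to 37000. The 2 lower members were Rab8a, which carries cargo to the apical membrane, with 71.0, 83.7 and 65.7 CPM in EEC and 154, 159.9 and 143 CPM in non-EEC (log2 fold change -1.05 ± 0.31, adjusted p = 0.0384), and Rab30 (log2 fold change -1.70 ± 0.50, adjusted p = 0.0369). Rab8a was not called with any 1 of the 6 libraries left out, with adjusted p from 0.0575 to 0.145, and Rab30 was not called without EEC replicate 1 or 2 or 3 or without non-EEC replicate 2 or 3, with adjusted p from 0.0633 to 0.161. Most of the family, 38 of 52, was not called in either direction.

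Transporters load amines into granules and retrieve them after release. Of 13 tested vesicular and neurotransmitter carriers, 4 were higher and 1 was lower. Slc18a1, a vesicular monoamine transporter that fills granules with serotonin (chr8:69037711-69089235, minus strand), had 655, 518 and 670.0 CPM in EEC and 20.7, 29.7 and 22.5 CPM in non-EEC (log2 fold change 4.66 ± 0.81, adjusted p = 0.00227). Slc18a2 had 48.1, 57.8 and 80.5 CPM in EEC and 10.7, 10.2 and 10.7 CPM in non-EEC (log2 fold change 2.56 ± 0.41, adjusted p = 0.00136). Slc29a4, a plasma membrane monoamine transporter, was higher by 3.48 ± 0.61 (adjusted p = 0.00241). Slc35d3 was higher by 5.75 ± 0.73 (adjusted p = 0.000342). Slc6a4, the plasma membrane serotonin transporter that enterocytes use to clear released serotonin, had 18.9, 53.1 and 11.3 CPM in EEC and 182, 139 and 133 CPM in non-EEC (log2 fold change -2.45 ± 0.67, adjusted p = 0.0273). EEC replicate 2, the EEC library with the most enterocyte RNA, was the highest of the EEC libraries for Slc6a4, which was not called without EEC replicate 1 or 3 or without non-EEC replicate 1 or 2 or 3, with adjusted p from 0.0584 to 0.126.

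**Figure D2:**
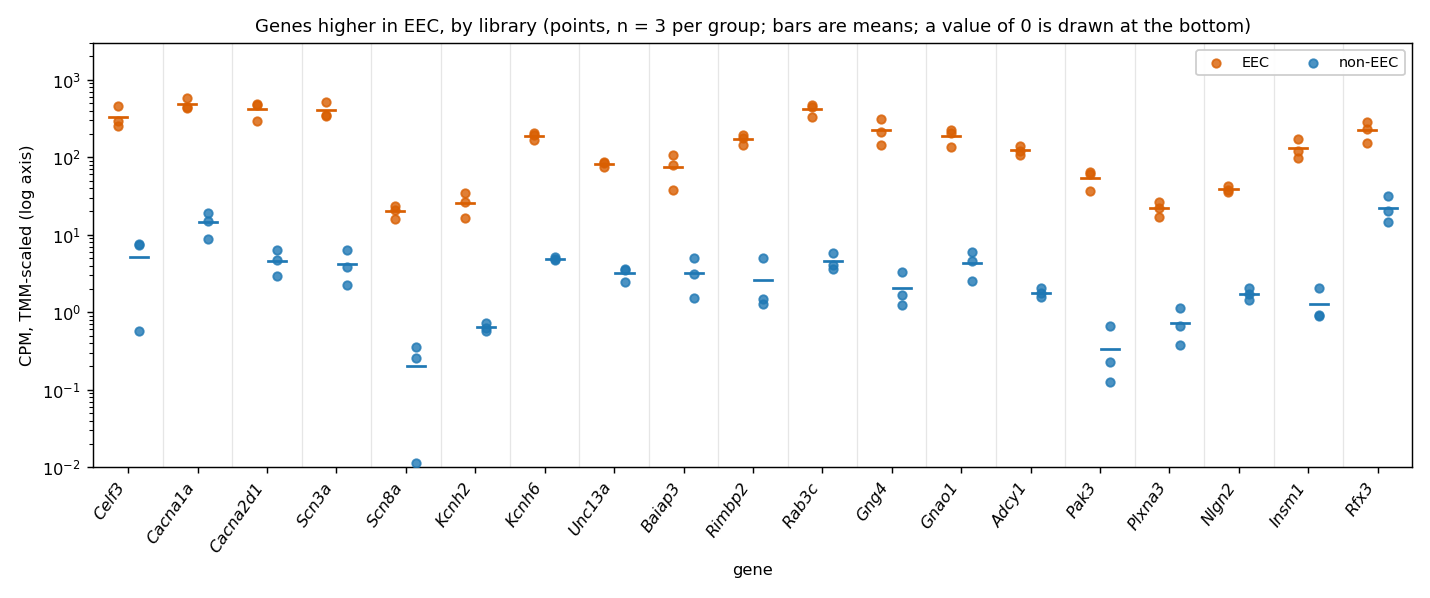
CPM (TMM-scaled, log axis) of 19 genes higher in EEC, with 1 point per library, 3 EEC libraries in orange and 3 non-EEC libraries in blue, and bars at the means; a value of 0 is drawn at the bottom. The 2 sorts do not overlap for any of the 19 genes, as for Scn8a, with 16.0 to 23.5 CPM in EEC and at most 0.361 CPM in non-EEC.

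Downstream of receptors, a subset of each signalling family was higher. Heterotrimeric G protein subunits were called higher for 5 of 26 tested members and lower for 1 (median 0.31), and leaving out each library gave 4, 5, 4, 4, 3 and 3 higher. Gnao1, the inhibitory alpha subunit that is most abundant in neurons (chr8:93809966-93969388, plus strand), had 226, 137 and 207 CPM in EEC and 4.52, 5.96 and 2.50 CPM in non-EEC (log2 fold change 5.45 ± 0.73, adjusted p = 0.000496). Gng4, a gamma subunit, had 315, 144 and 214 CPM in EEC and 3.31, 1.65 and 1.25 CPM in non-EEC (log2 fold change 6.71 ± 0.95, adjusted p = 0.00066). Gnaz, a pertussis toxin-resistant inhibitory subunit, was higher by 7.01 ± 1.15 (adjusted p = 0.00158). None of these 3 genes overlapped between sorts. The lower member, Gna13, an alpha subunit, had 157, 169 and 146 CPM in EEC and 340.3, 355 and 278 CPM in non-EEC (log2 fold change -1.04 ± 0.29, adjusted p = 0.0288). Gna13 was not called with any 1 of the 6 libraries left out, with adjusted p from 0.0548 to 0.113. Regulators of G protein signalling, which shorten the active state, were called higher for 6 of 19 tested members and lower for 1, Rgs3. Rgs3 was not called with any 1 of the 6 libraries left out, with adjusted p from 0.0515 to 0.159, and its adjusted p was 0.0883 with the block. The higher calls numbered 5, 5, 5, 5, 4 and 5 with each library left out. Rgs2 had 958, 539.9 and 1040.3 CPM in EEC and 83.6, 27.5 and 99.3 CPM in non-EEC (log2 fold change 3.59 ± 0.66, adjusted p = 0.00319). Rgs4 was higher by 5.50 ± 1.06 (adjusted p = 0.00413).

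Enzymes that make and break cyclic nucleotides were called higher for 9 of 32 tested members and lower for 1 (median 0.08). Adcy1, a cyclase stimulated by calcium and calmodulin (chr11:7063489-7178506, plus strand), had 107, 122 and 139 CPM in EEC and 1.57, 1.78 and 2.05 CPM in non-EEC (log2 fold change 6.10 ± 0.56, adjusted p = 7.41e-05). Adcy2 was higher by 5.61 ± 1.01 (adjusted p = 0.00266). Pde1c, a phosphodiesterase that is also activated by calmodulin, had 66.3, 26.7 and 40.8 CPM in EEC and 0.301, 1.40 and 1.37 CPM in non-EEC (log2 fold change 5.52 ± 0.64, adjusted p = 0.000206). Pde11a, which hydrolyses both cyclic nucleotides, was higher by 5.16 ± 0.50 (adjusted p = 8.32e-05), with EEC libraries at 68.2, 73.4 and 95.3 CPM. Pde5a, which is specific for cyclic GMP, was the lower member, with 42.6, 100.2 and 36.1 CPM in EEC and 172, 220.2 and 128 CPM in non-EEC (log2 fold change -1.54 ± 0.48, adjusted p = 0.0485). Pde5a was not called without EEC replicate 1 or 3 or without non-EEC replicate 1 or 2 or 3, with adjusted p from 0.073 to 0.195. Calcium/calmodulin-dependent and PAK kinases were called higher for 7 of 25 tested members and lower for 1, Mylk, and leaving out each library gave 3, 6, 4, 5, 4 and 5 higher. Mylk, which activates myosin, was not called without EEC replicate 1 or 3 or without non-EEC replicate 1 or 2 or 3, with adjusted p from 0.0545 to 0.138. Pak3, a kinase of neurons and endocrine progenitors (chrX:143518591-143797796, plus strand), had 64.2, 36.1 and 61.1 CPM in EEC and 0.663, 0.127 and 0.228 CPM in non-EEC (log2 fold change 7.10 ± 0.64, adjusted p = 6.67e-05). Camk2b, a subunit of the calcium-activated kinase of synapses, had 239, 152 and 192 CPM in EEC and 10.7, 32.3 and 15.3 CPM in non-EEC (log2 fold change 3.33 ± 0.42, adjusted p = 0.000342).

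Promoters of genes in this comparison were searched for E-boxes and other short motifs because the NEUROD and NEUROG factors, which were themselves higher in EEC, bind E-boxes. Upstream sequences of 250 bases came from RefSeq (GRCm38.p6, the mm10 build), which matched 11912 of the tested genes with 15185 promoters. CAGATG on either strand was present in 10.8% of all these promoters. It was present in 12.5% of 200 promoters of 155 genes matched among the 200 with the smallest p that were higher in EEC, and in 12.2% of 222 promoters of 160 genes matched among the 200 lower ones. CAGCTG, which is its own reverse complement, was present in 12.5% of all, 14% of the higher and 9.91% of the lower. GTTGCCAT, the letters of an RFX half-site, was present in 0.955%, 1% and 0.901% in the same order. CAAAGTCCA, an HNF4 core, was present in 0.441%, 0.5% and 0%, and AAAGGTCA, a nuclear receptor half-site, in 1.05%, 0% and 0.901%. No motif searched contains another. The promoters of Gng4 (3 matches), Pak3 (2) and Rimbp2 (2) held the most E-box matches among the named higher genes in that set, and they are printed 5′ to 3′ on the strand of the gene, with matches to CAGATG or CAGCTG on either strand in capitals. They lie at chr13:13783809-13784058, plus strand, at chrX:143518341-143518590, plus strand and at chr5:128953487-128953736, minus strand, each ending just before the annotated transcript start.
Gng4: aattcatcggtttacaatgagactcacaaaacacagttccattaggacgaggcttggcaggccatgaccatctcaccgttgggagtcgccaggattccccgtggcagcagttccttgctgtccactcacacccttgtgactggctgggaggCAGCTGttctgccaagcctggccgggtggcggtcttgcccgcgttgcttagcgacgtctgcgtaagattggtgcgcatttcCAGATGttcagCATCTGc
Pak3: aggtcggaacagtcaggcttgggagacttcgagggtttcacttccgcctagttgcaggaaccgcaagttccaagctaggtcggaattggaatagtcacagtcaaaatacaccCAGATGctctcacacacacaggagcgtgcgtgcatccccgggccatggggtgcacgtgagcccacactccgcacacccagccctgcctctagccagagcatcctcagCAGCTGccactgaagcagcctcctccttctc
Rimbp2: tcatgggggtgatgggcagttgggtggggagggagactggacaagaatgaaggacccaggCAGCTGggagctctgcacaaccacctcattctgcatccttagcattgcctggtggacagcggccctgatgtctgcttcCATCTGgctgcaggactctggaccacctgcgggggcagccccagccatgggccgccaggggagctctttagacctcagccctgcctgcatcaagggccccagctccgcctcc
The matches begin at -99, -18 and -7 relative to the transcript start in Gng4, at -138 and -31 in Pak3 and at -190 and -112 in Rimbp2. A match to 6 letters describes the sequence and was not tested as a binding site.

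Ligands and receptors that guide axons and position cells included many genes higher in EEC. Semaphorins, plexins and neuropilins were called higher for 9 of 28 tested members (median 0.07). The plexins are receptors for semaphorins: Plxnb1 (chr9:109095389-109119917, plus strand) had 159, 50.1 and 70.2 CPM in EEC and 3.67, 0.761 and 1.25 CPM in non-EEC (log2 fold change 5.55 ± 0.62, adjusted p = 0.000189). Plxna3 had 22.3, 16.9 and 26.7 CPM in EEC and 0.663, 0.381 and 1.14 CPM in non-EEC (log2 fold change 4.90 ± 0.53, adjusted p = 0.000148). Nrp1, a neuropilin co-receptor, was higher by 5.19 ± 0.70 (adjusted p = 0.000496), with 150.3, 95.9 and 159.6 CPM in EEC. Slit, Robo and netrin genes were called higher for 5 of 10 tested members, with 3, 5, 4, 4, 3 and 3 when each library was left out. Unc5a, a netrin receptor, had 62.7, 29.5 and 46.6 CPM in EEC and 3.01, 1.14 and 0.683 CPM in non-EEC (log2 fold change 4.78 ± 0.54, adjusted p = 0.000197). Ephrins and Eph receptors were called higher for 3 of 15 tested members and lower for 1. Epha7 had 35.7, 20.6 and 36.4 CPM in EEC and 0.783, 1.27 and 1.37 CPM in non-EEC (log2 fold change 4.78 ± 0.73, adjusted p = 0.00103). Epha2, an Eph receptor of epithelia, had 16.2, 37.5 and 20.3 CPM in EEC and 61.4, 117 and 85.6 CPM in non-EEC (log2 fold change -1.84 ± 0.55, adjusted p = 0.0396). Epha2 was not called without EEC replicate 1 or 3 or without non-EEC replicate 2 or 3, with adjusted p from 0.0942 to 0.17.

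Synaptic adhesion proteins were called higher for 12 of 35 tested members (median 1.25). Nlgn2, a postsynaptic neuroligin of inhibitory synapses (chr11:69823122-69837784, minus strand), had 35.9, 42.8 and 37.6 CPM in EEC and 1.45, 2.03 and 1.71 CPM in non-EEC (log2 fold change 4.49 ± 0.39, adjusted p = 5.1e-05). Ptprs, a receptor phosphatase of presynaptic membranes, had 86.1, 72.5 and 91.7 CPM in EEC and 5.42, 5.07 and 6.15 CPM in non-EEC (log2 fold change 3.91 ± 0.37, adjusted p = 7.78e-05). Both genes were several-fold apart in every pair of EEC and non-EEC libraries. Ncam2, a homophilic adhesion molecule, was higher by 6.48 ± 0.92 (adjusted p = 0.00066). Flrt1 was higher by 6.28 ± 0.80 (adjusted p = 0.000355). Cadherins and protocadherins were called higher for 16 of 40 tested members (median 2.71), a count that became 6, 16, 9, 11, 8 and 6 when each library was left out. Pcdhgc4, a clustered gamma protocadherin, had 203, 124.3 and 147 CPM in EEC and 19.3, 7.48 and 4.44 CPM in non-EEC (log2 fold change 3.91 ± 0.53, adjusted p = 0.000501). Pcdhb19 belongs to the beta cluster on chromosome 18, whose members are similar enough in sequence that the counts of single members are uncertain. Pcdhb19 had 0 counts in all non-EEC libraries and 4.55, 3.76 and 5.41 CPM in EEC, at least 51.2-fold higher against the floor. Among tight junction genes 3 of 20 were higher, the claudins Cldn1, Cldn6 and Cldn9 (median -0.12), with counts of 2, 3, 2, 3, 1 and 1 when each library was left out.

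Cytoskeletal lists held neuronal genes that were higher in EEC. Keratins and related intermediate filaments were called higher for 6 of 18 tested members (median 2.04). Nefm, a neurofilament subunit (chr14:68082590-68124846, minus strand), had 138, 36.2 and 79.0 CPM in EEC and 1.51, 1.40 and 1.25 CPM in non-EEC (log2 fold change 5.92 ± 0.68, adjusted p = 0.000202). Vim, the filament of mesenchymal and many neural cells, had 404, 133 and 302 CPM in EEC and 9.04, 2.28 and 8.65 CPM in non-EEC (log2 fold change 5.38 ± 0.66, adjusted p = 0.000289). The keratin Krt7 reached 1024, 408 and 729 CPM in EEC and 43.0, 16.5 and 37.6 CPM in non-EEC (log2 fold change 4.48 ± 0.72, adjusted p = 0.00132). Of 6 fibroblast markers, whose cells also make Vim, the 2 that passed the filter summed to 0.128, 3.49 and 0 CPM in EEC, and Lum was at 0 in all 6 libraries. Of 6 endothelial markers, whose cells make Vim too, 2 were tested and Pecam1 was called higher in EEC, with 1374 counts against 379. The 2 summed to 26.3 to 46.2 CPM in EEC and 9.22 to 17.2 CPM in non-EEC. The other tested marker, Cdh5, had 20 and 12 counts, and Kdr, Tek, Flt1 and Plvap had 2 to 13 counts in EEC and 4 to 12 in non-EEC. The Pecam1 call was lost without EEC replicate 3 or non-EEC replicate 1 or 2. The part of these cells in the Vim result was not tested, nor was that of myeloid cells, whose markers are given below with the lysosomal genes. Tubulins, stathmins and microtubule-associated proteins were called higher for 10 of 35 tested members (median 1.10). Map1b, which binds axonal microtubules, had 1017, 567 and 861 CPM in EEC and 12.6, 7.23 and 5.12 CPM in non-EEC (log2 fold change 6.60 ± 0.96, adjusted p = 0.000777), and the neuronal tubulin Tuba1a had 201, 96.7 and 284 CPM in EEC and 3.50, 2.79 and 5.81 CPM in non-EEC (log2 fold change 5.59 ± 0.54, adjusted p = 8.32e-05). Kinesins and dyneins were called higher for 12 of 53 tested members, or 7, 10, 9, 10, 7 and 8 with each library left out. Kif1a, the motor of dense-core and synaptic vesicle precursors, had 151, 93.5 and 116 CPM in EEC and 1.145, 5.71 and 1.59 CPM in non-EEC (log2 fold change 5.45 ± 0.83, adjusted p = 0.00103). Kif12 was higher by 4.70 ± 0.70 (adjusted p = 0.000909), and Dync2h1, the motor of ciliary return transport, by 2.23 ± 0.46 (adjusted p = 0.00667).

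RNA-binding proteins that direct neuronal splicing were called higher for 10 of 19 tested members (19 of the 23 genes in the table passed the filter, median 3.20). Celf3 (chr3:94478295-94492198, plus strand) had 458, 293 and 249.8 CPM in EEC and 7.29, 7.48 and 0.569 CPM in non-EEC (log2 fold change 6.02 ± 1.12, adjusted p = 0.00329). Khdrbs3, a STAR-domain splicing factor, had 29.6, 20.9 and 18.9 CPM in EEC and 2.47, 2.16 and 1.37 CPM in non-EEC (log2 fold change 3.52 ± 0.55, adjusted p = 0.00122). Srrm3, which promotes inclusion of neural microexons, was higher by 3.75 ± 0.70 (adjusted p = 0.00344). Nova2 had 2 counts in all non-EEC libraries together and 16.9, 8.51 and 11.3 CPM in EEC, a ratio of 212-fold with a 95% counting interval of 58.3 to 1750.

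Among transcription factors, homeobox genes held more called members than basic helix-loop-helix (bHLH) factors. Homeobox genes outside the Hox clusters were called higher for 20 of 51 tested members (median 1.74). Pax4, which steers endocrine fate (chr6:28442334-28449353, minus strand), had 42.0, 31.0 and 75.5 CPM in EEC and 0.723, 0.127 and 0.455 CPM in non-EEC (log2 fold change 6.69 ± 0.80, adjusted p = 0.000254). Nkx2-2 had 164, 62.6 and 201 CPM in EEC and 0.964, 2.66 and 1.82 CPM in non-EEC (log2 fold change 6.33 ± 0.85, adjusted p = 0.000497). EEC replicate 2 had the lowest value of the EEC libraries for both genes. The list of endocrine zinc finger and RFX factors was called higher for 13 of 36 tested members and lower for 1. Insm1, a repressor needed for endocrine differentiation (chr2:146221921-146225020, plus strand), had 120.3, 98.4 and 173 CPM in EEC and 2.05, 0.888 and 0.911 CPM in non-EEC (log2 fold change 6.60 ± 0.57, adjusted p = 5.1e-05). St18, a relative of the neural factor Myt1, had 293, 118 and 208 CPM in EEC and 3.01, 2.16 and 4.21 CPM in non-EEC (log2 fold change 6.04 ± 0.67, adjusted p = 0.000174). Rfx3, a regulator of cilia and of islet cells, had 229, 151 and 287 CPM in EEC and 31.2, 14.6 and 20.1 CPM in non-EEC (log2 fold change 3.34 ± 0.45, adjusted p = 0.000524). The lower member was Hnf4g, a nuclear receptor of enterocytes, with 138, 511 and 185 CPM in EEC and 1049.8, 1599.8 and 1110.4 CPM in non-EEC (log2 fold change -2.17 ± 0.57, adjusted p = 0.0233). Hnf4g was not called without EEC replicate 1 or 3 or without non-EEC replicate 2 or 3, with adjusted p from 0.0523 to 0.11. These 2 lists and the bHLH list hold EEC markers used to check the sort, and their counts are not independent of that check. The zinc finger and RFX list was also chosen for the endocrine lineage, so its share cannot be ranked against the others.

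Of 47 tested bHLH factors, 3 were higher (Neurod1, Neurod2 and Neurog3, the first and the last of them sort markers and Neurog3 the reporter gene) and 1, Srebf1, was lower, and with the replicate block 6 were higher. Neurod1, which follows Neurog3 in EEC differentiation, had 907, 446 and 921 CPM in EEC and 7.17, 5.58 and 3.53 CPM in non-EEC (log2 fold change 7.12 ± 0.92, adjusted p = 0.00041). Neurod2 had 3 counts in all non-EEC libraries together and 32.5, 9.14 and 24.1 CPM in EEC, a ratio of 257-fold with a 95% counting interval of 87.7 to 1250. Srebf1, which drives lipid synthesis, had 60.04, 55.8 and 43.4 CPM in EEC and 76.2, 183 and 126 CPM in non-EEC (log2 fold change -1.27 ± 0.35, adjusted p = 0.0293). Srebf1 was not called without EEC replicate 1 or 2 or 3 or without non-EEC replicate 2 or 3, with adjusted p from 0.058 to 0.134. Nuclear receptors showed few calls in this comparison, 1 higher and 2 lower of 42, with a median of -0.77, or -0.70 at the bound; with the block 9 were lower, and 0, 6, 0, 4, 0 and 0 lower and 0, 1, 0, 0, 0 and 2 higher with each library left out. The Zfp list, which includes many KRAB zinc finger repressors, was called higher for 33 of 345 tested members and lower for 2. That share is close to the 10.2% of all genes, and leaving out each library gave 13, 31, 11, 28, 14 and 10 higher and 0, 3, 1, 2, 1 and 0 lower. Yet 258 of its 345 members had a positive fold change and the median was 0.47. Zfp622, which takes part in ribosome maturation, had 115, 86.0 and 161 CPM in EEC and 40.2, 31.3 and 45.9 CPM in non-EEC (log2 fold change 1.62 ± 0.31, adjusted p = 0.00425). Cytosolic ribosomal protein genes differed from these lists: edgeR called 0 of 80 in either direction, with or without the block, against 0 higher and 0 lower at an unadjusted p below 0.05. DESeq2 called 0 higher and 0 lower. Their fold changes lay between -0.45 and 0.35 with a median of -0.05.

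Peroxisomal and fatty acid oxidation genes were among those lower in EEC. Peroxisomal genes were called lower for 17 of 54 tested members and higher for 2 (median -1.02), against 3.77% lower among all genes. Leaving out each library in the order given above gave 5, 18, 5, 14, 6 and 5 lower, so the count rested on EEC replicates 1 and 3 and on non-EEC replicates 2 and 3. Cat, catalase, which breaks down the hydrogen peroxide made by peroxisomal oxidases (chr2:103453849-103485160, minus strand), had 155, 289 and 136 CPM in EEC and 688, 939.5 and 938 CPM in non-EEC (log2 fold change -2.15 ± 0.42, adjusted p = 0.00454). Idh1, which makes NADPH in cytosol and peroxisomes, had 117, 192 and 97.4 CPM in EEC and 495, 654 and 672 CPM in non-EEC (log2 fold change -2.17 ± 0.43, adjusted p = 0.00492). Hsd17b4, the multifunctional enzyme of peroxisomal beta-oxidation, had 98.3, 154 and 56.9 CPM in EEC and 439, 416 and 494 CPM in non-EEC (log2 fold change -2.13 ± 0.45, adjusted p = 0.0075). Crot, which exports shortened acyl chains as carnitine esters, was lower, at -1.59 ± 0.32 (adjusted p = 0.00587). For all 4 genes EEC replicate 2 was the highest EEC library and still lay below every non-EEC library. The 12 enterocyte markers moved with these genes, and with the beta-oxidation, respiratory, conjugation and brush border genes below (10297, 22771 and 10948 CPM in EEC, 39617 to 87588 in non-EEC), and their part in the result was not tested. The higher members were Pex5l, a brain relative of the peroxisomal import receptor that binds a pacemaker channel, with 32.3, 23.4 and 30.9 CPM in EEC and 0.361, 0.127 and 0.228 CPM in non-EEC (log2 fold change 6.77 ± 0.57, adjusted p = 4.55e-05), and Uox, urate oxidase, with 0 counts in non-EEC, at least 55.6-fold higher in EEC against the floor.

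Mitochondrial beta-oxidation and ketogenesis genes were called lower for 12 of 37 tested members and higher for 2 (median -1.04), and 34 of the 37 fold changes were negative. Leaving out each library gave 1, 12, 1, 7, 6 and 3 lower. Acadm, the medium-chain acyl-CoA dehydrogenase (chr3:153922357-153944632, minus strand), had 41.6, 69.3 and 51.2 CPM in EEC and 166, 133 and 193 CPM in non-EEC (log2 fold change -1.60 ± 0.34, adjusted p = 0.00716). Acadsb, which acts on branched short chains from isoleucine, went the other way, with 125, 89.8 and 159.5 CPM in EEC and 39.95, 15.7 and 13.4 CPM in non-EEC (log2 fold change 2.43 ± 0.45, adjusted p = 0.00345). Cpt1c, the brain form of carnitine palmitoyltransferase, was the other higher member, at 2.31, 6.72 and 1.73 CPM in EEC against 2 counts in all non-EEC libraries together, a ratio of 55.6-fold with a 95% counting interval of 15.1 to 464. Respiratory chain and ATP synthase genes were called lower for 10 of 80, while 78 of 80 fold changes were negative and the median was -0.86. With the replicate block 25 were lower, while leaving out each library gave 0, 10, 0, 10, 2 and 0. Ndufs1, a subunit of complex I, had 67.5, 104 and 64.5 CPM in EEC and 175, 156 and 181 CPM in non-EEC (log2 fold change -1.12 ± 0.30, adjusted p = 0.0271). Ndufs1 was not called without EEC replicate 1 or 3 or without non-EEC replicate 1 or 2 or 3, with adjusted p from 0.0536 to 0.127. Sdhb, the iron-sulfur subunit of succinate dehydrogenase, had 55.9, 94.1 and 61.5 CPM in EEC and 142, 178 and 243 CPM in non-EEC (log2 fold change -1.41 ± 0.40, adjusted p = 0.0333). Sdhb was not called without EEC replicate 1 or 3 or without non-EEC replicate 2 or 3, with adjusted p from 0.0732 to 0.149.

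Enzymes that modify and conjugate foreign compounds were lower in part. UDP-glucuronosyltransferases and sulfotransferases were called lower for 8 of 22 tested members and higher for 1 (median -1.41), with 0, 9, 0, 5, 2 and 1 when each library was left out. Sult1b1, a sulfotransferase of thyroid hormones and phenols, had 36.0, 184 and 81.3 CPM in EEC and 423, 696 and 749 CPM in non-EEC (log2 fold change -2.63 ± 0.61, adjusted p = 0.0121). Sult1b1 was not called without EEC replicate 1 or 3, with adjusted p from 0.0509 to 0.0608. The higher member was Sult4a1, a brain sulfotransferase, with 0 counts in non-EEC and 7.38, 1.70 and 3.98 CPM in EEC, at least 51.8-fold higher against the floor. Glutathione transferases and peroxidases were called lower for 8 of 30 and higher for 3 (median -1.45), with 2, 7, 1, 7, 6 and 3 lower when each library was left out and 11 with the block. Gsta1, an alpha-class transferase (chr9:78230656-78242684, plus strand), had 44.7, 71.2 and 44.9 CPM in EEC and 658, 280.1 and 467 CPM in non-EEC (log2 fold change -3.13 ± 0.66, adjusted p = 0.00733). Gpx3, a secreted glutathione peroxidase, ran opposite, with 1458, 396 and 899 CPM in EEC and 13.0, 13.8 and 6.26 CPM in non-EEC (log2 fold change 6.38 ± 1.19, adjusted p = 0.0034). Aldehyde and alcohol dehydrogenases and aldo-keto reductases were called lower for 8 of 35, or 1, 8, 1, 6, 2 and 1 with each library left out. Aldh1a1, which makes retinoic acid from retinal, had 117, 232 and 136 CPM in EEC and 949, 869.7 and 1350.5 CPM in non-EEC (log2 fold change -2.70 ± 0.54, adjusted p = 0.00509). Cytochrome P450 genes were called lower for 6 of 44 and higher for 2, and lower for 10 with the block, with 0, 11, 0, 7, 1 and 1 lower and 1, 2, 2, 2, 1 and 1 higher when each library was left out. Cyp2f2 was among the higher, with 35.7, 35.9 and 48.9 CPM in EEC and 0.482, 0.127 and 0 CPM in non-EEC (adjusted p = 0.00155). Close paralogs within these families share sequence, and the counting of their shared reads is not given in the sources used here.

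Digestive enzymes of the brush border had the lowest median of the 54 lists, -2.25, with 6 of 29 tested members called lower. The count was 15 with the replicate block, 15 without EEC replicate 2, 8 without non-EEC replicate 1 and 0 without any 1 of the other 4 libraries. Mme, the peptidase neprilysin, had 119, 519.7 and 178 CPM in EEC and 1309.9, 2704 and 1757 CPM in non-EEC (log2 fold change -2.82 ± 0.82, adjusted p = 0.0352). Mme was not called without EEC replicate 1 or 3 or without non-EEC replicate 2 or 3, with adjusted p from 0.0752 to 0.15. EEC replicate 2 had the highest Mme value of the EEC libraries, as it did for the summed enterocyte markers. Of brush border myosins and linkers 4 of 45 were called lower, and 10 with the block, against 0, 7, 0, 4, 0 and 0 when each library was left out. Ezr, which links actin to the membrane, had 192, 314 and 197 CPM in EEC and 414, 973 and 772 CPM in non-EEC (log2 fold change -1.62 ± 0.44, adjusted p = 0.0278). Ezr was not called without EEC replicate 1 or 3 or without non-EEC replicate 2 or 3, with adjusted p from 0.0807 to 0.126.

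**Figure D3:**
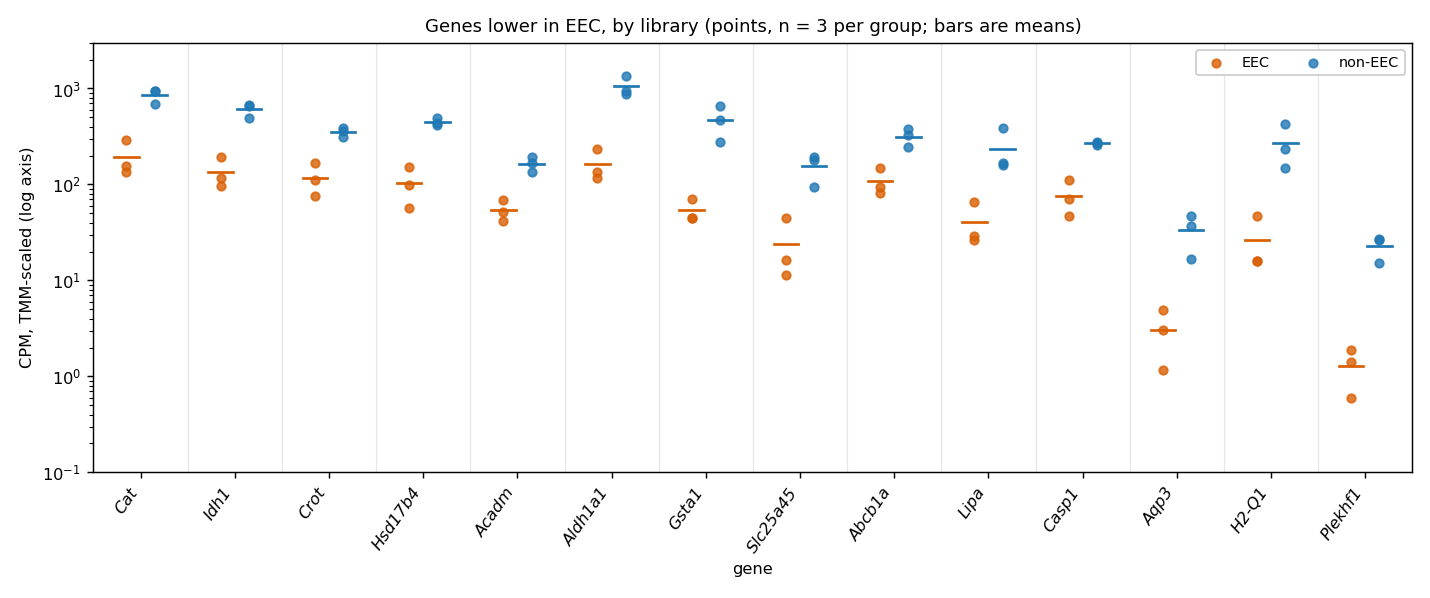
CPM (TMM-scaled, log axis) of 14 genes lower in EEC, with 1 point per library, 3 EEC libraries in orange and 3 non-EEC libraries in blue, and bars at the means. The sorts do not overlap for any of the 14 genes, as for Crot, with 75.6 to 166 CPM in EEC and 312 to 383 CPM in non-EEC.

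Several families held members called in opposite directions. With 10.2% of all tested genes called higher and 3.77% lower, lists of this size can hold both without differing from all genes. Among mitochondrial carriers, 5 of 48 were higher (10.4%) and 9 lower (18.75%). The shares for the metal carriers below were 14.7% higher and 17.65% lower. Slc25a4, the ADP/ATP carrier typical of muscle and nerve, had 204, 54.9 and 113 CPM in EEC and 11.3, 9.01 and 3.98 CPM in non-EEC (log2 fold change 3.93 ± 0.58, adjusted p = 0.000825). Slc25a5, the widely expressed ADP/ATP carrier, picked out after its values were seen, had 283, 437 and 414 CPM in EEC and 621, 957 and 1319 CPM in non-EEC (log2 fold change -1.35 ± 0.42, adjusted p = 0.048), and its call was kept in 1 of the 6 fits that left out a library of this diet. Slc25a35, a carrier of unknown substrate, was higher by 4.25 ± 0.57 (adjusted p = 0.000497). Slc25a45 was lower, with 11.4, 44.3 and 16.4 CPM in EEC and 95.02, 192 and 181 CPM in non-EEC (log2 fold change -2.70 ± 0.50, adjusted p = 0.00327). Leaving out each library gave 3, 5, 3, 3, 3 and 3 higher and 2, 8, 2, 10, 3 and 4 lower. Among 6 aquaporins, 1 was higher and 3 were lower. Aqp9, a channel for glycerol and water (chr9:71110659-71168682, minus strand), had 12.4, 13.8 and 14.3 CPM in EEC and 0 counts in non-EEC, at least 149-fold higher against the floor. Aqp3, a glycerol channel of epithelia, had 1.16, 4.93 and 3.08 CPM in EEC and 16.8, 37.0 and 46.7 CPM in non-EEC (log2 fold change -3.46 ± 0.74, adjusted p = 0.00798), and the lower calls numbered 1, 2, 1, 2, 1 and 1 when each library was left out. Zinc and other metal carriers were called higher for 5 of 34 and lower for 6: Slc39a2, an importer, had 23.7, 8.96 and 8.49 CPM in EEC and 0.663, 0.634 and 0.569 CPM in non-EEC (log2 fold change 4.44 ± 0.93, adjusted p = 0.00667), while Slc30a4, an exporter, had 59.8, 88.2 and 66.6 CPM in EEC and 175, 220.1 and 211 CPM in non-EEC (log2 fold change -1.50 ± 0.35, adjusted p = 0.0121). Slc30a4 was not called without EEC replicate 1 or 3, with adjusted p from 0.0561 to 0.07. These counts became 1, 5, 4, 6, 2 and 1 higher and 0, 8, 0, 7, 1 and 2 lower when each library was left out, and 10 were lower with the block.

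Carriers of ions at the plasma membrane were called higher for 7 of 41 and lower for 3, or 4, 7, 6, 5, 4 and 5 higher and 0, 7, 0, 3, 0 and 0 lower with each library left out, and 6 lower with the block. Slc4a8, a sodium-driven bicarbonate exchanger of neurons (chr15:100761747-100823968, plus strand), had 65.8, 67.8 and 68.3 CPM in EEC and 2.95, 4.69 and 0.797 CPM in non-EEC (log2 fold change 4.58 ± 0.54, adjusted p = 0.000247), with nearly equal EEC libraries. Slc8a1, the sodium/calcium exchanger that clears calcium after a stimulus, had 52.7, 20.6 and 29.3 CPM in EEC and 1.21, 0.381 and 0.797 CPM in non-EEC (log2 fold change 5.36 ± 0.80, adjusted p = 0.000881). Slc26a4, an iodide and chloride exchanger, had 26.8, 33.2 and 36.8 CPM in EEC and 0.422, 0.381 and 0.228 CPM in non-EEC (log2 fold change 6.49 ± 1.41, adjusted p = 0.00837), while its relative Slc26a3, the chloride/bicarbonate exchanger of absorptive cells, had 15.8, 128 and 33.4 CPM in EEC and 356, 374 and 277 CPM in non-EEC (log2 fold change -2.51 ± 0.72, adjusted p = 0.0332). Slc26a3 was not called without EEC replicate 1 or 3 or without non-EEC replicate 1 or 2 or 3, with adjusted p from 0.0615 to 0.134. Without EEC replicate 2, the fold change of Slc26a3 was -3.77. Ion pumps and their regulators were called higher for 11 of 56 and lower for 2 (median 0.60), or 6, 11, 5, 10, 6 and 7 higher and 0, 3, 0, 0, 0 and 0 lower when each library was left out, and 4 lower with the block. Atp6v1b2, a subunit of the proton pump that acidifies granules and lysosomes, had 425, 293 and 453 CPM in EEC and 98.3, 99.7 and 102 CPM in non-EEC (log2 fold change 1.96 ± 0.30, adjusted p = 0.000998). Fxyd3, a modulator of the sodium pump, was higher by 4.54 ± 0.76 (adjusted p = 0.00179). ABC transporters were called higher for 8 of 38 and lower for 4. Abcc4, an exporter of cyclic nucleotides, was higher by 3.39 ± 0.52 (adjusted p = 0.00103). Abcb1a, the drug efflux pump of the apical membrane, had 95, 148 and 81.8 CPM in EEC and 248, 375 and 324 CPM in non-EEC (log2 fold change -1.54 ± 0.32, adjusted p = 0.00692). The lower ABC count was 1, 6, 2, 2, 1 and 1 when each library was left out, and the higher count 6, 7, 5, 5, 7 and 6.

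Lysosomal genes were called higher for 6 of 43 (13.95%) and lower for 5 (11.6%), against 10.2% and 3.77% of all genes. Leaving out each library gave 4, 6, 4, 6, 3 and 3 higher and 1, 6, 1, 6, 2 and 1 lower. Ids, the iduronate sulfatase of heparan and dermatan sulfate (chrX:70343069-70365084, minus strand), had 760.0, 412 and 653 CPM in EEC and 39.8, 28.7 and 28.4 CPM in non-EEC (log2 fold change 4.23 ± 0.40, adjusted p = 8.12e-05). Ctsl, a cysteine protease that also cleaves prohormones, had 241, 162 and 333 CPM in EEC and 27.8, 37.9 and 52.4 CPM in non-EEC (log2 fold change 2.64 ± 0.41, adjusted p = 0.00118). Lipa, the lysosomal acid lipase, ran opposite, with 29.3, 64.9 and 26.2 CPM in EEC and 167, 385 and 158 CPM in non-EEC (log2 fold change -2.56 ± 0.45, adjusted p = 0.0025). Summed myeloid markers, whose cells are rich in lysosomes, overlapped between the sorts (31.9 to 155 CPM in EEC, 43.6 to 115 in non-EEC). Glycosyltransferases were called higher for 12 of 71 and lower for 4, with 7, 12, 8, 9, 7 and 7 higher and 0, 3, 1, 2, 1 and 1 lower when each library was left out, and 8 lower with the block. St6galnac2, which adds sialic acid to O-glycans, had 235, 179 and 191 CPM in EEC and 79.5, 78.1 and 90.1 CPM in non-EEC (log2 fold change 1.29 ± 0.27, adjusted p = 0.00707). St8sia3, which makes chains of sialic acid in brain, had 144, 78.1 and 126 CPM in EEC and 5.48, 3.04 and 0.911 CPM in non-EEC (log2 fold change 5.17 ± 0.91, adjusted p = 0.00232). Tetraspanins and related proteins were called higher for 4 of 34 and lower for 4 (11.8% each way), the higher share being close to the 10.2% of all genes. Tspan1 was higher by 3.37 ± 0.70 (adjusted p = 0.00667), while Tspan8 had 77.0, 234.1 and 127 CPM in EEC and 526, 329 and 624 CPM in non-EEC (log2 fold change -1.75 ± 0.50, adjusted p = 0.0329). Tspan8 was not called without EEC replicate 1 or 3 or without non-EEC replicate 1 or 3, with adjusted p from 0.064 to 0.148, and its adjusted p was 0.0602 with the block. The lower count was 0, 5, 1, 2, 3 and 0 and the higher count 2, 4, 3, 3, 4 and 2 when each library was left out.

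**Figure D4:**
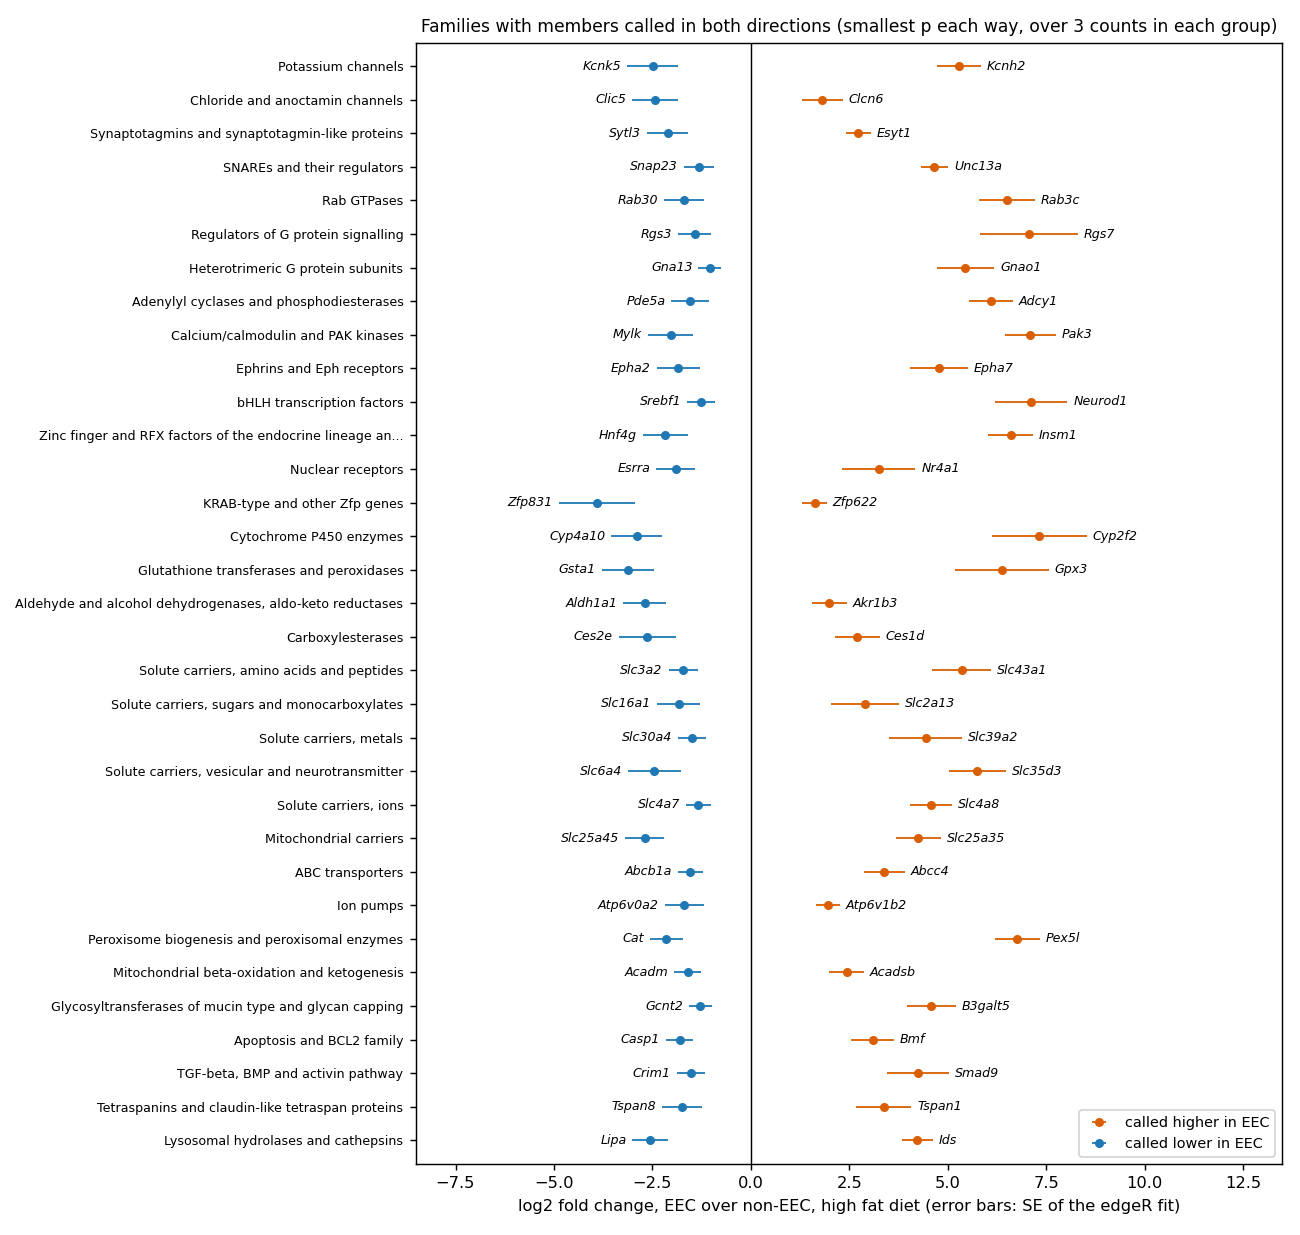
Families with members called in both directions: the member with the smallest p among those higher in EEC (orange) and among those lower (blue), as log2 fold change of EEC over non-EEC with SE, for genes with over 3 counts in each sort and 33 of the 34 such families. The fold changes of the higher members range from 1.62 to 7.33 and those of the lower members from -3.91 to -1.04. Among all tested genes 10.2% were called higher and 3.77% lower, so calls in both directions do not set a list apart.

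Growth factor ligands and receptors were called higher for 8 of 45 and lower for 1, and for 11 higher with the block. With each library left out, 6, 8, 7, 8, 6 and 5 were higher and 0, 2, 0, 1, 0 and 0 lower. Gfra3 and Ret form a receptor for the neurotrophic factor artemin: Gfra3 was higher by 6.65 ± 0.99 (adjusted p = 0.000901). Ret had 167, 39.7 and 101 CPM in EEC and 1.63, 12.9 and 3.19 CPM in non-EEC (log2 fold change 4.14 ± 0.72, adjusted p = 0.00219). Ret was one of the 4 neuron and glia markers called higher. Fgf14, an intracellular partner of sodium channels, had 112, 63.0 and 108 CPM in EEC and 1.21, 2.16 and 3.64 CPM in non-EEC (log2 fold change 5.36 ± 0.94, adjusted p = 0.00229). In the TGF-beta, BMP and activin pathway 7 of 36 were higher and 1 was lower (median 0.35), with 6, 8, 5, 7, 4 and 4 higher and 0, 4, 0, 2, 0 and 1 lower when each library was left out. Smad9, a transducer of BMP signals, had 28.7, 10.3 and 18.7 CPM in EEC and 0.723, 0.761 and 1.59 CPM in non-EEC (log2 fold change 4.24 ± 0.79, adjusted p = 0.00337). Bambi, a decoy receptor, was higher by 3.67 ± 0.73 (adjusted p = 0.0051). Of 35 apoptosis genes 6 were lower and 1 was higher. Casp1, the inflammasome protease (chr9:5298517-5307265, plus strand), had 47.2, 111 and 70.2 CPM in EEC and 255, 277 and 269 CPM in non-EEC (log2 fold change -1.81 ± 0.35, adjusted p = 0.00421). The higher member was Bmf, which promotes cell death when cells detach, with 16.7, 11.02 and 8.49 CPM in EEC and 1.63, 1.78 and 0.797 CPM in non-EEC (log2 fold change 3.09 ± 0.55, adjusted p = 0.00243). The lower count was 1, 6, 1, 7, 2 and 2 when each library was left out and 9 with the block.

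Among the 12 genes with the largest fitted differences on the higher side that had at least 10 CPM on average in EEC and no overlap, 6 had 0 counts in all non-EEC libraries: Stum, Rprml, Aqp9, Adamts5, Rtl5 and Nxph1. Stum, which takes its name from a fly gene of mechanosensory neurons, had 23.9, 8.24 and 18.8 CPM in EEC, at least 198-fold higher against the floor of 3 counts. Rprml had 17.0, 3.58 and 26.3 CPM, at least 181-fold higher, and Nxph1, a secreted ligand of neurexins, 20.6, 5.83 and 7.21 CPM, at least 134-fold higher. Alb, serum albumin, had 40.3, 16.9 and 25.8 CPM in EEC and 2 counts in non-EEC, a ratio of 481-fold with a 95% counting interval of 133 to 3980. Cartpt, the precursor of the neuropeptide CART, had 41.2, 41.2 and 111 CPM in EEC and 0.0602, 0.127 and 0.228 CPM in non-EEC (log2 fold change 8.92 ± 1.26, adjusted p = 0.000657). Plekhf1, an endosomal adaptor (chr7:38216972-38228016, minus strand), had 1.41, 1.88 and 0.601 CPM in EEC and 15.3, 27.0 and 26.2 CPM in non-EEC (log2 fold change -4.13 ± 0.66, adjusted p = 0.00134). H2-Q1, a class I histocompatibility gene whose relatives are similar in sequence, had 16.0, 47.0 and 16.1 CPM in EEC and 148, 237 and 430.3 CPM in non-EEC (log2 fold change -3.37 ± 0.69, adjusted p = 0.00592). G6pc, which releases glucose from glucose 6-phosphate, had 4.36, 9.32 and 6.46 CPM in EEC and 53.6, 63.3 and 113 CPM in non-EEC (log2 fold change -3.51 ± 0.93, adjusted p = 0.0237). G6pc was not called without EEC replicate 1 or 3 or without non-EEC replicate 3, with adjusted p from 0.0803 to 0.111, and its adjusted p was 0.0564 with the block. Ikzf3, a lymphocyte transcription factor, had 2.12, 4.39 and 6.54 CPM in EEC and 59.5, 6.60 and 48.3 CPM in non-EEC (log2 fold change -3.14 ± 0.80, adjusted p = 0.0198), with non-EEC replicate 2 the lowest non-EEC library, as for the summed T cell markers (602, 90.9 and 946 CPM), whose part in the result was not tested. Ikzf3 was not called without EEC replicate 1 or without non-EEC replicate 1 or 3, with adjusted p from 0.0579 to 0.0981, and its adjusted p was 0.0766 with the block.

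The EEC against non-EEC fold change was also tested for a difference between the diets. Such a difference can come from a change in EEC, in non-EEC or in both, and does not by itself show a change in EEC. The difference, high fat minus normal diet, was called positive for 77 genes (0.451%) and negative for 8 (0.0468%) of 17087. It was called positive for 0 genes without EEC replicate 1 or 3 or non-EEC replicate 3 of the high fat diet, and 0 without EEC replicate 2 or non-EEC replicate 2 of the normal diet, and for 464 without non-EEC replicate 1 of the normal diet. It was 39 and 14 without non-EEC replicates 1 and 2 of the high fat diet, 34 and 1 without EEC replicates 1 and 3 of the normal diet, and 8 without non-EEC replicate 3 of the normal diet. Crmp1, a cytosolic mediator of semaphorin signals, had 31.4, 24.8 and 42.6 CPM in EEC and 0.783, 0.127 and 0.911 CPM in non-EEC under the high fat diet (log2 fold change 5.69 ± 0.70, adjusted p = 0.000302) and a log2 fold change of -0.07 under the normal diet, a difference of 5.76 ± 0.87 (adjusted p = 0.0247). Sh3kbp1, an adaptor of receptor endocytosis, had 351, 207 and 263 CPM in EEC and 13.6, 5.83 and 13.4 CPM in non-EEC (log2 fold change 4.63 ± 0.53, adjusted p = 0.000202) and -0.05 under the normal diet, a difference of 4.68 ± 0.68 (adjusted p = 0.0247). Flvcr1, a heme and choline transporter, was lower in EEC under the high fat diet (log2 fold change -2.68 ± 0.49, adjusted p = 0.00308) and had 0.68 under the normal diet, a difference of -3.35 ± 0.67 (adjusted p = 0.0478). Esyt1, described above with the synaptotagmins, had a log2 fold change of -0.52 under the normal diet, a difference of 3.25 ± 0.44 (adjusted p = 0.02). Its mean in EEC was 126.1 CPM under the normal diet and 137.5 CPM under the high fat diet. In non-EEC the mean was 180.5 CPM under the normal diet and 20.75 CPM under the high fat diet. Of the other genes described above for other reasons, 6 also had a called positive difference. It was 3.71 ± 0.67 for Kcnh2 (adjusted p = 0.0363) and 4.64 ± 0.79 for Baiap3 (adjusted p = 0.0316). It was 4.04 ± 0.80 for Vim (adjusted p = 0.0456) and 3.51 ± 0.65 for Tuba1a (adjusted p = 0.0413). Stum and Aqp9, at 0 in the high fat diet non-EEC libraries, had adjusted p = 0.042 and 0.0275, with no fold given. The non-EEC libraries of the normal diet held 12701 to 33126 CPM of T cell markers and 3504 to 21466 CPM of enterocyte markers, and the part of these in the differences was not tested. For 4 lists with many genes higher in EEC, the fitted medians under the normal diet were 3.82 for calcium channels, 5.34 for sodium channels, 2.79 for neuronal RNA-binding proteins and 1.07 for homeobox factors. For the metabolic lists the normal diet medians were 0.04 for peroxisomal genes, -0.10 for beta-oxidation and 0.75 for brush border enzymes. The lists' medians were not tested between diets.

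**Figure D5:**
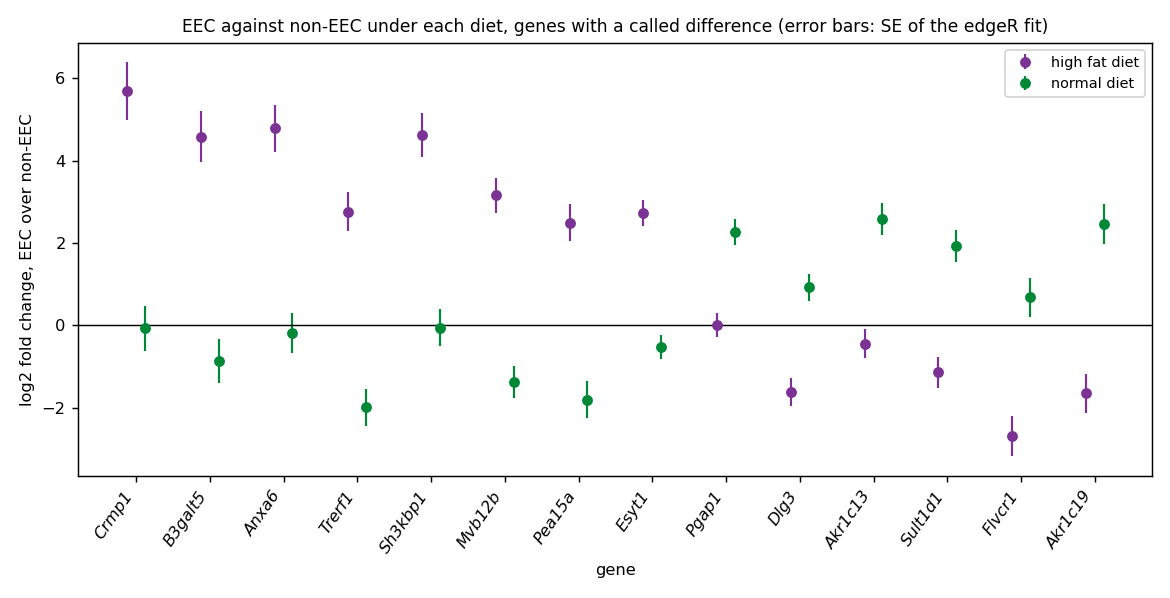
Log2 fold change of EEC over non-EEC, with SE, under the high fat diet (purple) and the normal diet (green) for the 14 genes named for the difference between diets. The first 8 genes, from Crmp1 to Esyt1, lie above 2 under the high fat diet and below 0 under the normal diet, and the last 6 lie higher under the normal diet.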

How the data were processed

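RNA was measured in 12 libraries, 3 per sort and diet. The deposited values are counts, whole numbers per gene that were not normalized. Per the submitters' processing notes, the tools were HTSeq 0.5.4p3, CASAVA 1.8.2, Bowtie2 2.1.0 and TopHat2 2.0.10, on mm10. The annotation release and the strand setting were not stated in the labels read here. Symbols and positions for 37607 of 39086 identifiers (96.2%) came from GENCODE vM21.

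Genes were kept by filterByExpr (17087) and fitted with edgeR 4.0.16 (TMM factors, 4 group means over 12 libraries, 8 residual degrees of freedom, quasi-likelihood test, Benjamini-Hochberg over all tested genes, calls below 0.05). The fit was tested on simulated data. Same-numbered EEC and non-EEC libraries of the high fat diet deviated together from their group means (correlations 0.247, 0.239 and 0.234). The labels do not state that a number marks 1 mouse. Main calls came from the fit without the block, and blocked values are given for some results. Blocked counts not given above include TRP channels (5 higher, 1 lower), Rab GTPases (10 higher, 3 lower) and cadherins (13 higher, 1 lower). They also include peroxisomal genes (3 higher, 21 lower) and beta-oxidation genes (2 higher, 16 lower). P-values measure the spread between libraries within groups, estimated together over the 4 groups of 3, so the normal diet libraries enter it too. With 3 mice per diet and 3 libraries of each sort, EEC and non-EEC libraries may share mice. The main fit treats them as independent. Replicate libraries differed by far more than counting noise. Folds against groups with 3 or fewer counts used a floor of 3 counts or an exact 95% counting interval, which cover counting error only.

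Named genes were up to 12 with the largest change each way (at least 10 CPM in the higher group, no overlap), up to 4 called members each way per list by p (2 if none was called), and up to 8 genes each way for the difference between diets. The members and lists were chosen with earlier results of these data known. Alternatives were other scalings (RLE, upper quartile), other filters, a robust fit, DESeq2 1.42.0, limma-voom 3.58.1, the block, the 6 libraries alone, and each library left out. A few genes of these lists are not reported here.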

Additional observations from a re-analysis of the deposited data

Results flagged for a closer look

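The fold change of EEC over non-EEC differed between the high fat and the normal diet, by the interaction term of the edgeR fit, for 77 genes in the positive and 8 in the negative direction. That term does not tell a change in EEC from a change in non-EEC. The 8 positive genes with the smallest p and at least 10 CPM in 1 group had log2 differences of 3.25 for Esyt1, 5.44 for B3galt5, 4.53 for Mvb12b, 4.75 for Trerf1, 4.68 for Sh3kbp1, 4.97 for Anxa6, 4.30 for Pea15a and 5.76 for Crmp1. The 6 negative genes with at least 10 CPM in 1 group had differences of -4.11 for Akr1c19, -3.04 for Akr1c13, -3.08 for Sult1d1, -2.54 for Dlg3, -2.27 for Pgap1 and -3.35 for Flvcr1. Genes named for other reasons had log2 differences of 3.71 for Kcnh2, 4.64 for Baiap3, 4.66 for Ntng2, 4.04 for Vim, 3.51 for Tuba1a, 3.77 for Slc39a13, 4.99 for Tgfb1 and 4.54 for Tspan9. For Stum and Aqp9, at 0 in the non-EEC libraries of the high fat diet, the adjusted p was 0.042 and 0.0275. Akr1c19 and Akr1c13 belong to a cluster of similar paralogs, so their counts may share reads. T cell markers summed to 12701 to 33126 CPM in the non-EEC libraries of the normal diet and to 90.9 to 946 CPM in those of the high fat diet, and the part of this in the differences was not tested.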

How the results depend on the processing

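The count of genes higher in EEC lay between 1553 and 2577 under the scaling, filter, test and block alternatives, and between 1101 and 1977 with 1 library left out. The count of lower genes was 1499 with DESeq2, 1808 with limma-voom, 1100 with the 6 high fat diet libraries alone, 1861 with those and a replicate block, and 1042 with the replicate block over 12 libraries. With 1 library left out it ranged from 50 to 1045. The difference between diets was positive for 602 genes with DESeq2, 963 with limma-voom and 255 with no filter, and negative for 470, 1220 and 107. It was negative for 14 with RLE factors, 17 with at least 5 CPM in 3 libraries and 20 with the replicate block, which gave 64 positive. With 1 library left out the positive count ranged from 0 to 464 and the negative count from 0 to 807. Fold changes that turned sign all belonged to genes not called. Pgap1 was at -0.02 with DESeq2 and with RLE factors. With 1 library left out, Col1a1 ranged from -2.54 to 0.24, Dcn ranged from -7.62 to 0.02, Tagln ranged from -0.33 to 0.13 and Pgap1 ranged from -0.18 to 0.15. The cause was not tested. RLE and upper quartile factors moved the median of all genes to -0.03 and 0.04. The 12 libraries held 9543183 to 29054281 counts, and Lum and other genes at or near 0 had no test. Whether depth or absence of their RNA left them there was not tested.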
